A study of Mus with 9 samples.

Results

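Metabotropic glutamate receptors are G protein-coupled receptors that read the glutamate released at a synapse and adjust transmission more slowly than the receptors that are ion channels. By sequence and signaling they form group I, which acts through Gq, phospholipase C and calcium release and lies mostly beside the postsynaptic density, and groups II and III, which act through Gi/o, lower cyclic AMP and lie largely on nerve terminals, where they restrain release. In the hippocampus the family is known for its part in long-term potentiation and depression and in spatial memory. Described here are 6 of its genes, found by gene symbol among 22662 symbols on the 22206 probe sets that both deposited tables hold: Grm5 of group I, Grm2 and Grm3 of group II, and Grm4, Grm7 and Grm8 of group III. Each has 1 probe set. For 5 of them the symbol stands alone, and the probe set of Grm8 is annotated to Grm8 and Mir592 together, a microRNA gene inside the Grm8 span.

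Hippocampal RNA of 9 mice was hybridized to Clariom S Mouse arrays, with 3 arrays each for SAMR1, SAMP8 and TG-treated SAMP8. SAMP8 is an inbred strain with early memory decline, and SAMR1 is the senescence-resistant strain that served as the control for normal aging, so a difference between them is one between whole strains. TG is trigonelline, a plant alkaloid, given by mouth to SAMP8 at 5 mg/kg daily for 30 days and on through 8 days of water maze testing. The nontreated SAMP8 and the SAMR1 mice received vehicle, which is saline in the sample records and water in the methods, and passed through the same maze. The methods describe 16-week-old male SAMP8 mice, which were then dosed for 30 days and tested for 8. Their age when tissue was taken, and any age for SAMR1, were not given in the sources used here. All values below are log2 signals, 1 authors' average per group, so the spread between mice is not known here, no test across arrays was run, and no order of groups can be set against replicate error. Levels are compared between groups for the same probe set, never between genes, because probe sets respond with different strength.

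The median over all probe sets was 6.09 in SAMR1, 6.04 in SAMP8 and 6.07 with TG. Both tables list the same SAMP8 averages, so the strain comparison and the TG comparison share their SAMP8 arrays, and a gene whose SAMP8 average happens to be high will be higher in the first and lower in the second. The hippocampal markers held Neurod6, a transcription factor of pyramidal neurons, at 14.86, 14.85 and 14.88 in SAMR1, SAMP8 and TG-treated SAMP8, and all 8 of that list lay above the lowest 25% of probe sets by mean signal, from Amigo2 with a mean of 6.40 to Neurod6 with 14.86. Of 6 cerebellar markers 2 lay in that lowest 25%, whose limit was 4.40, as did 1 of 8 striatal and 1 of 6 choroid plexus markers. All 6 receptor genes lay above that limit. So did the cerebellar markers Pcp2 and Car8, with means of 5.92 and 6.41, and the limit does not mark a gene as expressed. In whole tissue, fewer cells of a type and less RNA per cell cannot be told apart.

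Between the strains, Grm8 was the receptor gene that stood farthest apart, with SAMP8 the higher, and the other 5 lay within 1.5-fold. With TG, Grm2 was higher and Grm8 lower than in nontreated SAMP8 by more than 1.5-fold, and Grm5 was lower and Grm4 higher by less than that. Grm3 and Grm7 stayed within 0.21 on the log2 scale in every comparison. The groups of the family did not act as units: with TG the 2 members of group II differed in sign, and group III held the lowest difference, a difference near 0 and a positive one.

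**Figure D1:**
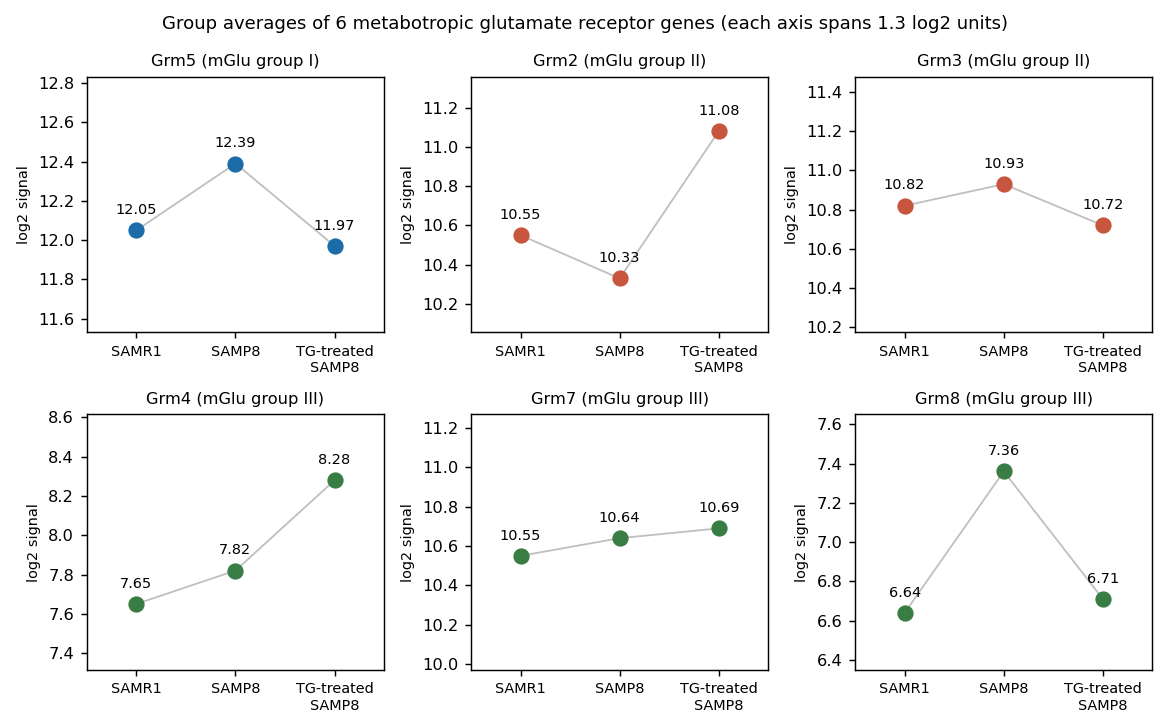
Authors' average log2 signal of each receptor gene in SAMR1, SAMP8 and TG-treated SAMP8, 1 point per group and no error bars, because no values per array were used; every panel covers the same height of 1.3 log2 units but its own level. SAMP8 is the highest of the 3 points for Grm5, Grm3 and Grm8 and the lowest for Grm2, while Grm4 and Grm7 are highest in TG-treated SAMP8.

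Group I was represented by Grm5, which encodes the Gq-coupled receptor mGlu5 of dendritic spines, held there by Homer proteins. It lies on chromosome 7 from 87583981 to 88135063 in GRCm38, a span of 551.1 kb. Its averages were 12.05 in SAMR1, 12.39 in SAMP8 and 11.97 with TG. SAMP8 thus stood highest, and the other two groups lay close to each other. Against SAMR1 the SAMP8 average was higher by 0.34 (1.27-fold), and 15.4% of all probe sets were higher by at least as much. TG-treated SAMP8 was lower than SAMP8 by 1.34-fold, a log2 difference of -0.42, and 9.27% of probe sets were lower by at least as much. Neither difference passed 1.5-fold, and TG-treated SAMP8 and SAMR1 were apart by -0.08.

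Group II receptors couple to Gi/o and serve as brakes on glutamate release. Grm2, whose product mGlu2 sits on the mossy fiber terminals of dentate granule cells among other places, lies on chromosome 9 from 106644534 to 106656109 and spans 11.6 kb. Its averages were 10.55 in SAMR1, 10.33 in SAMP8 and 11.08 with TG. The TG-treated group was the highest and SAMP8 the lowest. The TG difference of 0.75 (1.68-fold) was the widest of the 6 receptor genes in that comparison, and 2.0% of all probe sets were higher by at least as much. Between the strains Grm2 was at -0.22, and TG-treated SAMP8 exceeded SAMR1 by 0.53 (1.44-fold). Among the hippocampal field markers, Prox1, a transcription factor of granule cells, had a TG difference of -0.85. C1ql2, which mossy fibers secrete, had one of 0.11, and Calb1 one of -0.38. Over the 8 markers of hippocampal fields the median TG difference was -0.18, and the part of the cell makeup in the Grm2 difference was not tested.

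Grm3 encodes mGlu3, which astrocytes carry as well as neurons and which responds to the dipeptide NAAG. It lies on chromosome 5 from 9485236 to 9725352, spanning 240.1 kb. Averages of 10.82 in SAMR1, 10.93 in SAMP8 and 10.72 with TG left it within 0.21 throughout. It was 1.08-fold higher in SAMP8 than in SAMR1 and 1.16-fold lower with TG. In the TG comparison 23.7% of all probe sets were lower by at least as much. The 5 astrocyte markers had a median difference of 0.17 between the strains and -0.11 with TG, with Gfap, the intermediate filament that reactive astrocytes raise, at 11.08 in SAMR1 and 12.03 in SAMP8. Of the enzymes around NAAG, the NAAG-cleaving Folh1 was at 6.70, 7.10 and 6.81, 1.32-fold higher in SAMP8 than in SAMR1. The NAAG synthetase genes Rimkla and Rimklb were each within 0.24 across the groups.

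Group III receptors are Gi/o-coupled autoreceptors of the presynaptic active zone. Grm8, the gene of mGlu8, a receptor described on perforant path terminals, lies on chromosome 6 from 27275121 to 28135146 and spans 860.0 kb, with Mir592 at 27936655 to 27936750. Its averages were 6.64 in SAMR1, 7.36 in SAMP8 and 6.71 with TG. SAMP8 stood alone above the other two, which were 0.07 apart. The strain difference was 0.72 (1.65-fold) and the TG difference was -0.65, a 1.57-fold lower signal. Of all probe sets, 2.75% were higher in SAMP8 by at least as much, and 2.61% were lower with TG by at least as much. Because the SAMP8 average enters both with opposite sign, these are not 2 separate observations. Signal of the probe set cannot be divided between the receptor transcript and the microRNA precursor.

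Grm4, whose product mGlu4 is most abundant on cerebellar parallel fibers, lies on chromosome 17 from 27422387 to 27513826 and spans 91.4 kb. Averages were 7.65 in SAMR1, 7.82 in SAMP8 and 8.28 with TG, so both SAMP8 groups were above SAMR1. With TG the gene was higher by 0.46 (1.38-fold) than in nontreated SAMP8, and TG-treated SAMP8 exceeded SAMR1 by 0.63 (1.55-fold). In the latter comparison 4.72% of all probe sets were higher by at least as much. Cerebellar and thalamic tissue also express Grm4. The 6 cerebellar markers averaged 4.92, 4.95 and 4.81 in SAMR1, SAMP8 and TG-treated SAMP8, and the 11 thalamic markers 7.88, 8.10 and 7.85. Their part in the Grm4 difference was not tested. Within the thalamic list, Prkcd and Zic1 were lower with TG, from 11.03 to 9.53 and from 11.47 to 9.56, while Tnnt1 and Synpo2 were higher by 0.66 and 0.63. Between TG-treated SAMP8 and SAMR1, where Grm4 passed 1.5-fold, 3 of the 11 thalamic markers were higher by more than that, Tcf7l2, Synpo2 and Rgs16. Another 2 were lower, and the median of the list was 0.10. Of all probe sets, 5.62% were higher and 4.83% lower by more than 1.5-fold in that comparison.

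Grm7 encodes mGlu7, the receptor of lowest glutamate affinity in the family, found at many hippocampal terminals. It lies on chromosome 6 from 110645349 to 111567230 and has the longest span of the 6, 921.9 kb. Its averages of 10.55, 10.64 and 10.69 in SAMR1, SAMP8 and TG-treated SAMP8 covered 0.14, the narrowest range of the 6 genes. With TG 43.9% of all probe sets were higher by at least as much. Grm6, a further group III gene and the receptor of retinal ON bipolar cells, had averages of 5.98, 5.97 and 6.19, with 23.9% of probe sets at least as much higher with TG.

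Counted at 1.5-fold, 1 of the 6 genes was higher in SAMP8 than in SAMR1, against 5.0% of all probe sets, and 0 were lower, against 6.08%. With TG 1 gene was higher and 1 lower than in nontreated SAMP8, where 4.48% of all probe sets were higher and 3.74% lower. Between TG-treated SAMP8 and SAMR1 1 gene was higher, against 5.62%, and 0 were lower, against 4.83%. Counts of 0 or 1 among 6 genes do not set the receptors apart from the array as a whole. The median difference of the 6 genes was 0.14 between the strains and -0.08 with TG, beside 0.00 and 0.01 over all probe sets.

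**Figure D2:**
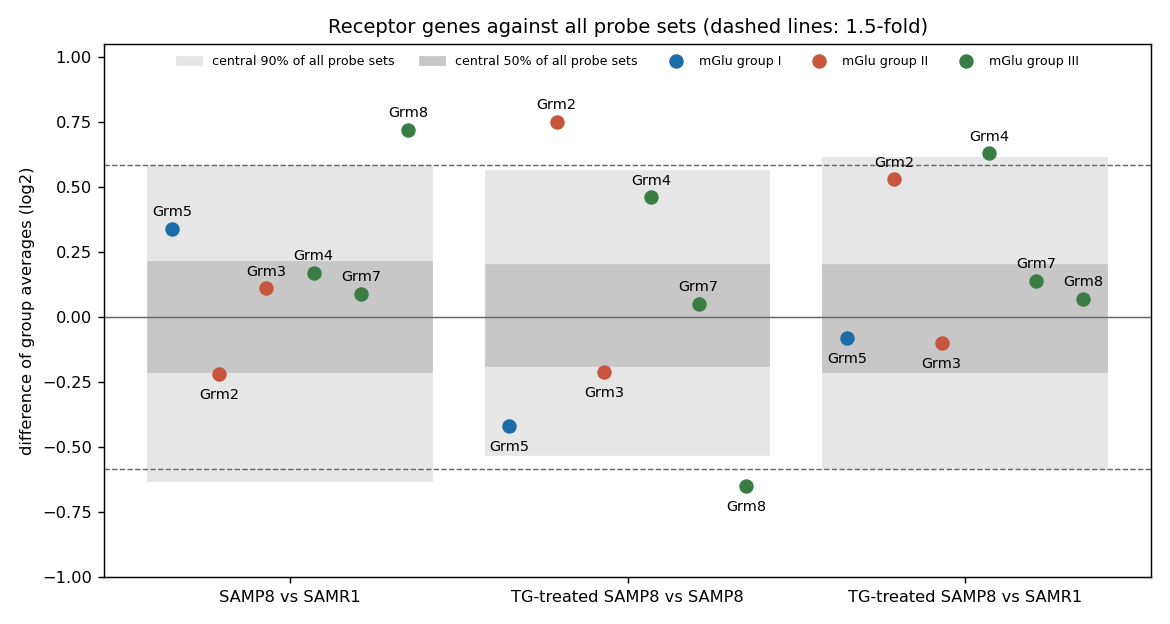
Log2 difference of group averages for the 6 receptor genes in 3 comparisons, colored by receptor group, with grey boxes for the central 50% and 90% of all 22206 probe sets and dashed lines at 1.5-fold. Grm8 lies outside the central 90% between the strains and with TG, Grm2 with TG, and Grm4 between TG-treated SAMP8 and SAMR1, while Grm7 is inside the central 50% in every comparison.

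The length of the gene was a further property on which the receptor genes differ, and it went with the TG difference over the array as a whole. Of 20751 probe sets placed on GRCm38 by a single gene symbol, the 2371 of genes over 100 kb had a median TG difference of -0.12, with 1.69% higher and 8.27% lower by more than 1.5-fold. The 11079 of genes under 20 kb had a median of 0.05, with 5.75% higher and 2.27% lower, and the 7301 in between a median of -0.04, with 2.51% higher and 4.78% lower. Of the receptor genes under 20 kb, Grm2 had a TG difference of 0.75, and Grm6, which is outside the member list, one of 0.22. Of those over 100 kb, Grm8 was at -0.65, Grm5 at -0.42, Grm3 at -0.21 and Grm7 at 0.05. Shares of probe sets above and below 0 were not counted by span class, so the signs of the receptor genes have no background here. Grm4, at 91.4 kb the one receptor gene of the middle class, was higher by 0.46. Between the strains the medians were 0.08 for genes over 100 kb and -0.03 for those under 20 kb. In that comparison 7.3% of the probe sets over 100 kb were higher and 2.83% lower by more than 1.5-fold. The shares were 4.08% and 6.55% under 20 kb, and 5.55% and 3.94% in between. The part of gene length in the receptor values was not tested.

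**Figure D3:**
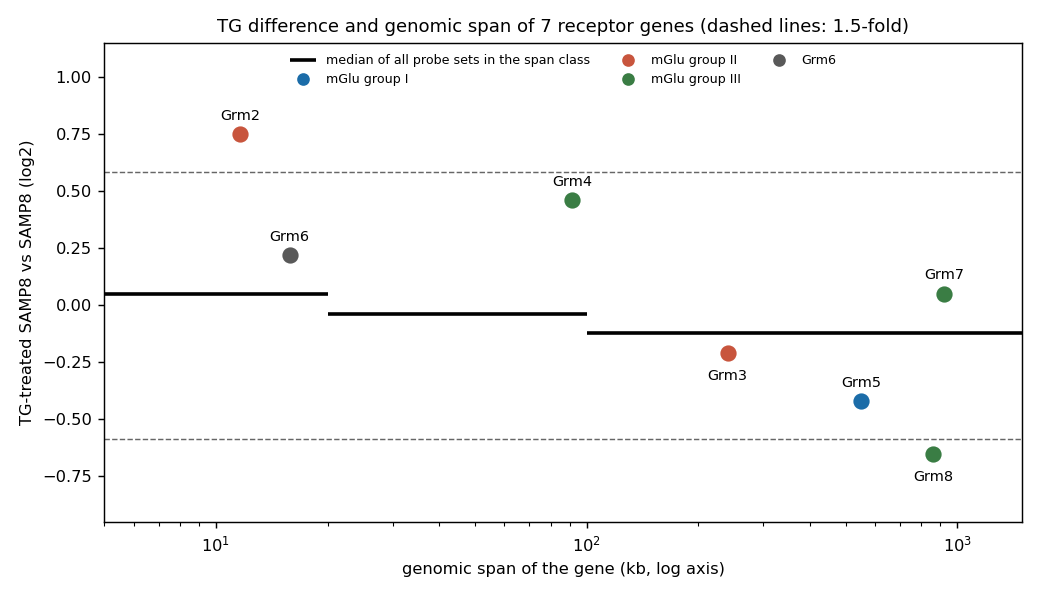
Log2 difference between TG-treated and nontreated SAMP8 against the genomic span in kb (log axis) for 7 receptor genes, with black lines for the median of all placed probe sets in 3 span classes and dashed lines at 1.5-fold. Grm2 at 11.6 kb has the highest difference, Grm8 at 860.0 kb the lowest, and Grm7 at 921.9 kb lies near 0.

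The proteins through which the receptors act, bind and are supplied with glutamate were followed in 93 further genes, sorted by role and including Grm6. Between the strains 5 were higher in SAMP8 by more than 1.5-fold and 0 lower, and the median difference was 0.12. With each group's averages centered on their median, the count was 12 in place of 5, and the share of all probe sets 6.21% in place of 5.0%. With TG 3 were higher and 7 lower, with a median of -0.10. Between TG-treated SAMP8 and SAMR1 8 were higher and 2 lower. For all probe sets the shares higher and lower were 5.0% and 6.08% between the strains, 4.48% and 3.74% with TG, and 5.62% and 4.83% between TG-treated SAMP8 and SAMR1.

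On the Gq arm of group I receptors (20 genes), 1 was past 1.5-fold between the strains and 3 with TG. Gnaq, the G protein subunit, was at 12.22, 12.31 and 12.31 in SAMR1, SAMP8 and TG-treated SAMP8, and Plcb1, a phospholipase it activates, at 14.07, 14.01 and 13.86. Plcb4, another phospholipase of that kind, was at 7.97, 8.54 and 8.14, and Prkca, a protein kinase C, at 11.96, 12.51 and 12.19, both within 1.5-fold. Itpr1, the receptor that releases stored calcium, was at 13.09, 13.65 and 13.93, which put TG-treated SAMP8 above SAMR1 by 1.79-fold. On the lipid branch, Dagla, which makes the endocannabinoid 2-arachidonoylglycerol from the diacylglycerol that phospholipase C releases, was at 10.58, 11.08 and 10.20, lower with TG by 1.84-fold. Its target on the terminal, the receptor gene Cnr1, stayed within 0.07 over the groups, from 12.89 to 12.96. Fmr1, an RNA-binding protein that restrains the protein synthesis mGlu5 sets off, was at 10.82, 11.30 and 10.67, and the cation channel gene Trpc5 at 9.17, 9.48 and 8.85. Both were 1.55-fold lower with TG, and both were highest in SAMP8, as Grm5 was. Such signs were common among the 93 pathway genes. Between the strains 67 of them were above 0, and with TG 63 were below 0, where 49.5% and 48.3% of all probe sets were. Arc, an immediate early gene translated on group I activation, went from 6.88 in SAMR1 to 7.52 in SAMP8 and 8.01 in TG-treated SAMP8, 2.19-fold from first to last.

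The scaffolds and partners (20 genes) differed little as a set, with 0 past 1.5-fold between the strains and a median of 0.10 between the strains and -0.06 with TG. Homer1, whose long forms tie mGlu5 to the postsynaptic density and whose short form loosens it, was at 13.47, 13.46 and 13.62. Homer2 and Homer3 differed by at most 0.25 between the groups. Grasp, the tamalin gene, a carrier of group I receptors to the membrane, was the one past 1.5-fold with TG, at 8.95, 9.41 and 8.82. Pick1, which holds mGlu7 at the active zone, was at 9.91, 10.01 and 10.28. The Elfn proteins bind group III receptors from across the synaptic cleft, and Elfn1 stood at 7.13, 7.16 and 7.15 and Elfn2 at 11.23, 11.39 and 11.20.

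For the Gi/o side, which groups II and III use, 17 genes of G proteins and their regulators were followed. Rgs4, which shortens Gq and Gi/o signals, was at 12.12 in SAMR1, 12.66 in SAMP8 and 13.34 with TG, the widest difference of the pathway between SAMR1 and TG-treated SAMP8 at 2.33-fold. Gng7, a G protein gamma subunit prominent in the striatum, was at 10.75, 10.84 and 9.95, lower with TG by 1.85-fold. In the same comparison, 1 of 8 striatal markers was lower by more than 1.5-fold, against 3.74% of all probe sets. That marker was Drd2, which went from 4.63 to 3.67 and lay in the lowest 25% by mean signal. The Gi subunit genes Gnai1, Gnai2 and Gnai3 differed by at most 0.45 between groups.

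Of the 8 adenylyl cyclases, the enzymes that make cyclic AMP, 2 were higher by more than 1.5-fold in SAMP8 than in SAMR1. By sign alone, 7 differences were above 0 between the strains and 8 below 0 with TG, where 49.5% and 48.3% of all probe sets were. Adcy8, a calcium-stimulated cyclase, was at 7.85, 9.06 and 8.69, 2.31-fold higher in SAMP8 than in SAMR1, and Adcy6 at 8.36, 9.28 and 8.74, 1.89-fold higher. With TG 0 of the 8 passed 1.5-fold. The list's median was 0.32 between the strains and -0.30 with TG, the widest of any role, and both rest on the same SAMP8 averages.

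Among 6 channels that beta-gamma subunits of Gi/o act on, Cacna1a, the pore of the P/Q-type calcium channel that triggers release, was at 12.46, 12.98 and 12.21, lower with TG by 1.71-fold. Kcnj9, a subunit of the inwardly rectifying potassium channels that such receptors open, was at 7.69, 7.70 and 8.32, higher with TG by 1.54-fold. The partner subunits Kcnj3 and Kcnj6 had the other sign with TG, at -0.41 and -0.42, while Kcnj5 had the same sign as Kcnj9, at 0.44. Of 7 genes for desensitization, Arrb1, a beta-arrestin gene, was at 13.29, 12.93 and 13.53, and 1.52-fold higher with TG. Arrb2, the other beta-arrestin gene of the list, was at 8.67, 8.41 and 8.69, and 1.21-fold higher with TG.

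Of the 14 genes for the supply and clearance of glutamate, 2 were higher by more than 1.5-fold in SAMP8 than in SAMR1 and 1 was lower with TG. Slc17a7, the vesicular transporter of hippocampal principal cells, was at 18.02, 18.12 and 18.11, and Slc1a2, the main astrocytic uptake carrier, at 18.36, 18.40 and 18.37. Slc1a3, the other astrocytic carrier and itself one of the 5 astrocyte markers, was at 11.14 in SAMR1, 11.76 in SAMP8 and 11.38 with TG, 1.54-fold higher in SAMP8 than in SAMR1. Slc17a6, the vesicular transporter of thalamic and other subcortical neurons, was at 7.48, 8.14 and 8.21. Beside it, the 11 thalamic markers had a median strain difference of 0.23. Of them, 2 were past 1.5-fold in that direction and 1 in the other, against 5.0% and 6.08% of all probe sets. Their part in the Slc17a6 difference was not tested. Slc7a11, the cystine-glutamate exchanger that sets the extrasynaptic glutamate group II receptors see, was at 8.66, 8.84 and 8.18, lower with TG by 1.58-fold.

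**Figure D4:**
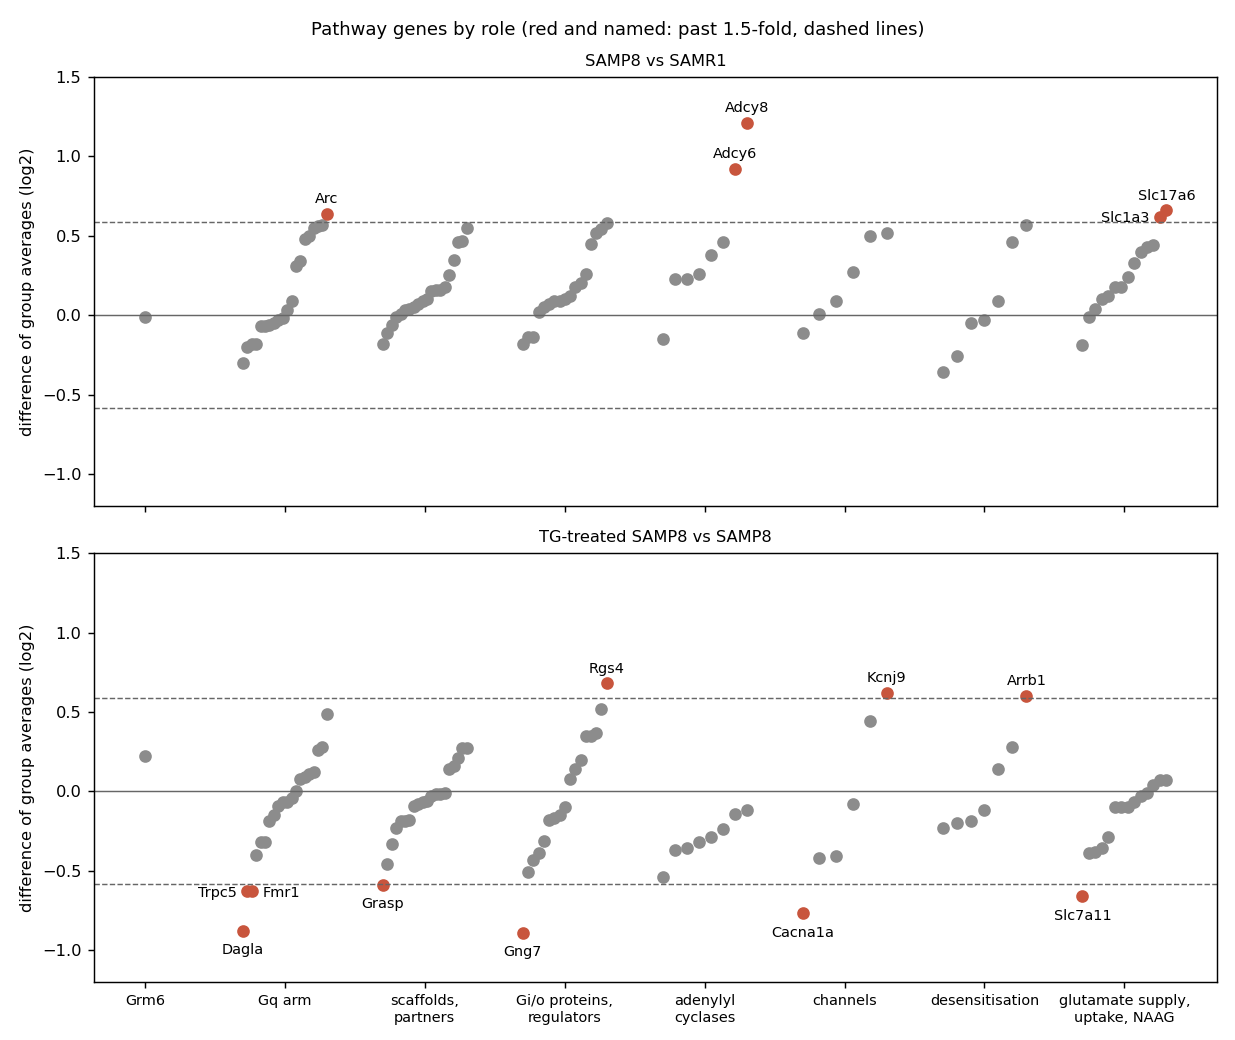
Log2 difference of group averages for 93 genes of the metabotropic glutamate pathway, sorted by role, between the strains (upper panel) and with TG (lower panel); each point is 1 gene, and those past 1.5-fold are red and named. The 5 named points of the upper panel are all above 0, and the lower panel has 3 above and 7 below.

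Markers of other cells and tissues differed in the same arrays. With TG, 3.74% of all probe sets were lower and 4.48% higher by more than 1.5-fold. Of 6 markers of the meninges 3 were lower with TG by more than 1.5-fold, Ptgds, Igf2 and Dcn, and the list had a median TG difference of -0.46. The others did not share that drop, with Col1a1 at 0.13, Col1a2 at 0.17 and Slc6a13 at -0.15. Of 6 interneuron markers 3 were higher, namely Pvalb, Sst and Vip, by 0.83, 0.69 and 0.74, with the list's mean at 9.36, 9.56 and 9.87. Gad1 and Gad2, the glutamate decarboxylase genes of all inhibitory neurons, had TG differences of -0.35 and -0.43. In the 5 general neuronal markers the mean was 15.08, 15.40 and 15.43. Between the strains the 5 microglial markers had means of 7.78 and 8.19 but a median difference of 0.09. Aif1 and P2ry12 were higher in SAMP8 by 1.51 and 0.86. Csf1r was at 0.09, and Cx3cr1 and Tmem119 were at -0.31 and -0.08. The 4 endothelial markers had means of 6.94 and 8.37, mainly through Abcb1a, a drug efflux pump of the vessel wall, at 6.50 and 10.82. Those of oligodendrocytes lay at 10.29, 10.28 and 10.41. The part of such shifts in the receptor values was not tested.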

How the data were processed

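The authors hybridized hippocampal RNA to Clariom S Mouse arrays and summarized them by SST-RMA in the TAC software, annotated on mm10 per the file headers. The 2 deposited tables, 1 per comparison, hold the authors' group averages as log2 signal with 2 decimals, so a difference carries a rounding of up to 0.01. Their fold change, p-value and adjusted p-value columns hold the authors' own comparisons and were not used. An average over 3 arrays hides the spread between mice, and the small number of arrays limits the precision.

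Here the averages were subtracted for 3 comparisons. A gene was counted at a fold change above 1.5, a rule of size and not a test, beside the share of all 22206 probe sets past it. Symbols were split at the semicolon, and probe sets of 1 gene were averaged. Positions and spans are from RefSeq on GRCm38 and placed 93.4% of the probe sets. Members, lists and rules were chosen with earlier results of these data known. Named were all 6 members, pathway genes past 1.5-fold in the strain or the TG comparison (at most 25), 8 fixed partners, the 3 closest patterns of each member that spans more than 1.5-fold, and markers beside a result. Cnr1, Itpr1, Plcb4, Prkca, Folh1, Rimkla, Rimklb, Slc17a7, Slc1a2, Kcnj3, Kcnj5, Kcnj6 and the Gnai genes were named after their values were seen. An item of the lists is not reported here. Alternatives were a fold of 1.2 or 2, averages centered on their median, no probe sets of the lowest 25%, and exact symbols. The counting was tested on simulated data. Python 3.11.15, numpy 2.4.6, pandas 2.3.3 and matplotlib 3.10.9 were used.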

Additional observations from a re-analysis of the deposited data

How the results depend on the processing

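The groups held different mice and no pairing between them is described, so no paired analysis was run. Because the deposited columns are group averages, no replicate could be left out. At a fold of 1.2, 2 receptor genes were higher and 0 lower between the strains (20.4% of all probe sets in each direction), 2 higher and 2 lower with TG (19.6% and 18.5%), and 2 higher and 0 lower between TG-treated SAMP8 and SAMR1. At a fold of 2, 0 receptor genes were counted in any comparison. With exact symbols, a choice added after seeing the data that leaves out Grm8, the counts were 0 between the strains and 0 lower with TG. For the pathway genes, a fold of 1.2 gave 31 higher and 2 lower between the strains, 13 and 27 with TG, and 22 and 11 between TG-treated SAMP8 and SAMR1. A fold of 2 gave 1 and 0, 0 and 0, and 2 and 0. The shares of all probe sets at each fold are those given above. Centering the averages on their median raised the pathway count between the strains from 5 to 12 higher genes, and moved the receptor differences by at most 0.05. Leaving out the lowest 25% of probe sets left every count of receptor and pathway genes as it was, and the SAMP8 averages of the other table were identical. The shares of probe sets at least as far out did change. For Grm8 the share was 3.48% in place of 2.75% between the strains and 3.24% in place of 2.61% with TG. For Grm2 with TG it was 2.24% in place of 2.0%. For Grm4 between TG-treated SAMP8 and SAMR1 it was 5.91% in place of 4.72%. Shares beside smaller differences moved either way.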

Other observations

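For the 3 receptor genes whose averages span more than 1.5-fold, the genes with the closest pattern over the 3 group averages were looked up among 15974 probe sets, by the largest gap after each set of 3 was centered on its own mean. Closest to Grm8 were Fgf14, a modulator of sodium channels (10.17, 10.89 and 10.23 in SAMR1, SAMP8 and TG-treated SAMP8), Lrrc1 and Prkx. Closest to Grm2 were 9030624G23Rik, Ndufb10, a subunit of respiratory complex I (7.63, 7.39 and 8.15), and Spink1. Closest to Grm4 were Gde1, Top1, the DNA topoisomerase I gene (12.51, 12.69 and 13.16), and Ubald1. The gap was 0.01 for each of these, and 166, 158 and 385 probe sets lay within 0.1 of Grm8, Grm2 and Grm4, so 3 averages leave many genes alike.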
